A study of Mus musculus with 9 samples.

Results

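The 10 genes described here encode effector molecules of mast cells and basophils, and they were taken by symbol from a table of 54347 genes measured in 3 mouse myeloid cell lines. They are the proteases *Prss34*, *Mcpt8*, *Cpa3*, *Tpsab1*, *Tpsb2*, *Cma1* and *Mcpt4*, the IgE receptor chains *Fcer1a* and *Ms4a2*, and *Hdc*, the enzyme that makes histamine. Hox-WT (genotype WT) and Hox-URE (genotype UREd/d) are Hox-immortalized hematopoietic progenitor lines, each made from c-Kit+ bone marrow cells of a wild-type or a knockout mouse. URE-AML (genotype UREd/d, called B22 in the labels) is an AML blast-like line established from leukemic cells. UREd/d cells lack the upstream regulatory element of *Spi1*, which encodes the transcription factor PU.1. All 3 lines were grown in IMDM with 20% FCS, IL-3, IL-6 and SCF at 10 ng/ml each, and β-estradiol at 1 µM according to the labels. Poly-A RNA was sequenced from 3 libraries per line. Each combination of genotype and disease state was represented by 1 line, so a difference between genotypes or disease states cannot be told apart from a difference between lines. The sources used here did not state whether the 3 libraries were grown as separate cultures, and p-values then measure only the spread between these libraries.

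Mast cells and basophils store preformed mediators in granules. Serine proteases of the tryptase and chymase families and the exopeptidase carboxypeptidase A3 are packed there with histamine on a serglycin scaffold. Release follows when antigen crosslinks IgE bound to FcεRI, a receptor of an α chain that holds IgE, a β chain that amplifies the signal and a pair of γ chains that pass it on. Mouse basophils are known for *Mcpt8* and *Prss34*, and connective tissue mast cells for *Cpa3*, *Tpsb2*, *Cma1* and *Mcpt4*. GATA2 is a factor known to act in both lineages, and IL-3 and SCF are the cytokines used to grow them.

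The serine proteases lie in 2 clusters of GRCm38. On chromosome 17, *Prss34* (plus strand, 25298394 to 25300165), *Tpsab1* (minus strand, 25343245 to 25345562) and *Tpsb2* (plus strand, 25366305 to 25369098) span 70.7 kb, with 43.1 kb between *Prss34* and *Tpsab1*. On chromosome 14, *Cma1* (55941451 to 55944675), *Mcpt4* (56059629 to 56062313) and *Mcpt8* (56082166 to 56085273) span 144 kb on the minus strand, with 19.9 kb between *Mcpt4* and *Mcpt8*. The other members lie alone, all on minus strands, with *Cpa3* on chromosome 3 (20215620 to 20242181), *Hdc* on chromosome 2 (126593667 to 126619299), *Ms4a2* on chromosome 19 (11615523 to 11623719) and *Fcer1a* on chromosome 1 (173221284 to 173227214). All 10 are annotated as protein-coding.

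The sequences upstream of 4 members are shown because these genes differed most in their behaviour across the lines: *Prss34* and *Cpa3* had the widest differences, *Mcpt8* kept a level in every line and *Ms4a2* stayed low. They are RefSeq sequences of GRCm38.p6 read 5′ to 3′ on the strand of each gene, and capitals mark the letters AGATAA on either strand, also with T as the first or G as the last letter, the core that GATA factors bind. The window of *Prss34* is chr17:25298144-25298393, of *Cpa3* chr3:20242182-20242431, of *Ms4a2* chr19:11623720-11623969 and of *Mcpt8* chr14:56085274-56085447.
Prss34: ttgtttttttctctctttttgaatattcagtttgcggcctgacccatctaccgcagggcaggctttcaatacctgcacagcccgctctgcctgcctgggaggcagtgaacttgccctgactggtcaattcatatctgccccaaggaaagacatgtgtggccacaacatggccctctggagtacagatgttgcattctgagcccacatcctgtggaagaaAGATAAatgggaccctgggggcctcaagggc
Cpa3: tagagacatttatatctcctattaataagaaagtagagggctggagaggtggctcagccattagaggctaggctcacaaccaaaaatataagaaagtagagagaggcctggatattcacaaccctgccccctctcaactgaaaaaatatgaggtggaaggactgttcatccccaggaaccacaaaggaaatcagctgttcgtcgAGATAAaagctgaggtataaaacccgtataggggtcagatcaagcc
Ms4a2: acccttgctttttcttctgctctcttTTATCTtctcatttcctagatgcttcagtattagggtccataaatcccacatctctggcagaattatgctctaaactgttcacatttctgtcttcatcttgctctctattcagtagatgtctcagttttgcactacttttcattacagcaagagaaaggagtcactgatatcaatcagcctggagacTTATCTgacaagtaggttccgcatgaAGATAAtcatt
Mcpt8: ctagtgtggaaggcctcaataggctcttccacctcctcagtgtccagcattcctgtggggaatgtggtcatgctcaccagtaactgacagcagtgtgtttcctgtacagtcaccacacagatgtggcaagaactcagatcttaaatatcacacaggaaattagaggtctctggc

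RefSeq windows of the 250 bases before the start were at hand for 8 of the 10 members, and *Tpsab1* and *Tpsb2* had no entry. The GATA letters occurred in 7 of these 8 windows, against 26.5% of 32851 mouse promoter windows of the same length. The match of *Prss34* lay at -31 to -26 and that of *Cpa3* at -46 to -41 from the start, while *Ms4a2* held 3 matches, at -224 to -219, -37 to -32 and -11 to -6. *Mcpt8* was the member without one in its 250 bases, of which the last 76 lie inside the GENCODE gene and are not shown. The window of *Hdc*, with a match at -221 to -216, lies wholly inside its GENCODE gene, whose start is further upstream. The letters GAGGAA, part of the motif of PU.1, stood in the windows of *Fcer1a* and *Mcpt8* (2 of 8, against 23.3% of all windows). In *Mcpt8* they lay at -65 to -60, among the 76 bases inside the GENCODE gene that are not shown. TGTGGT, a RUNX core, stood in 4 of 8 (against 14%), at -73 to -68 in *Cpa3* and 2 times in *Mcpt8*. These letters overlap no GATA match, both strands were searched for each, and a match describes the sequence without showing that a factor binds there.

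Libraries held 20331064 to 28588718 counts, and 3 counts, the most that an observed 0 allows, came to 0.104 to 0.153 CPM, a unit scaled by library total and TMM factor. These limits cover counting error only. No library was a copy of another, since counts differed within lines by a chi-square of 18.1 to 99.8 per degree of freedom, the highest value between Hox-URE libraries 1 and 3. *Spi1*, next to the deleted element, was at 96.5 to 110 CPM in Hox-WT, at 0 to 1 count in Hox-URE and at 2.5 to 6.35 CPM in URE-AML. Of the members, 6 passed the filter on low counts and were tested among 13082 genes. *Fcer1a*, *Tpsb2*, *Cma1* and *Mcpt4* did not pass it. Calls required an FDR under 0.05, the p of the edgeR quasi-likelihood F test adjusted by Benjamini-Hochberg over all tested genes, and a fold change over 1.5. Differences are given as fitted log2 ratios. In bulk RNA, more cells that express a gene and more RNA per cell cannot be told apart.

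**Figure D1:**
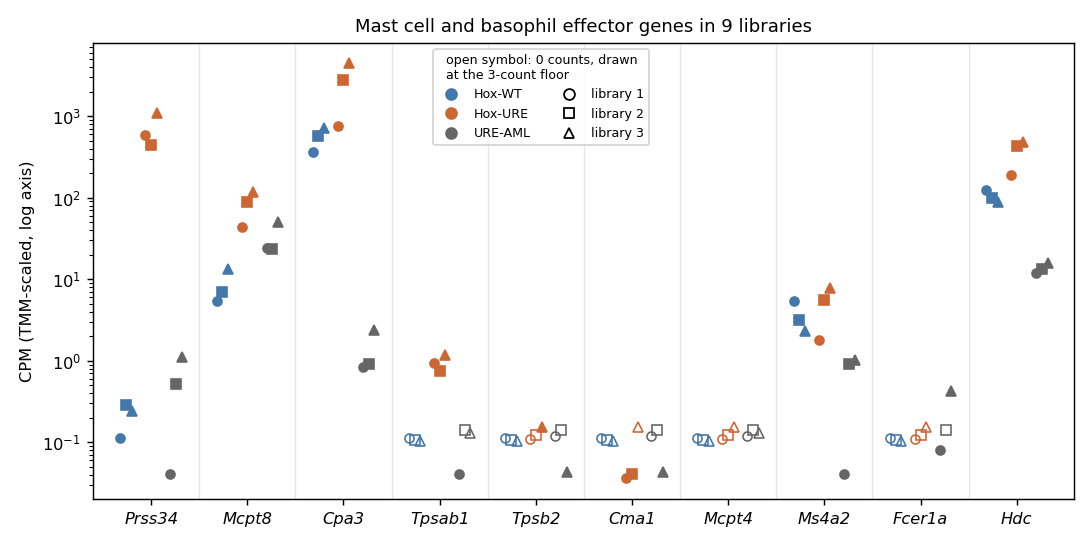
Level of each member in each library, in CPM on a log axis. Colours mark the lines, symbols the library number, and open symbols libraries with 0 counts, drawn at the level of 3 counts. *Prss34* reached 442 to 1080 CPM in Hox-URE and stayed at or under 1.12 CPM in the other lines, and *Cpa3* was at or under 2.36 CPM in URE-AML.

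*Prss34*, a tryptase of basophils, was the member that set Hox-URE apart most widely. The 3 Hox-WT libraries held 3, 8 and 7 counts of it (0.112, 0.286 and 0.242 CPM). The Hox-URE libraries held 16223, 10673 and 21222 counts, or 591, 442 and 1080 CPM, and the URE-AML libraries 1, 11 and 26 counts, or 0.0404, 0.523 and 1.12 CPM. Every Hox-URE library thus lay far above all others, and the Hox-WT and URE-AML libraries overlapped. The mean of 706 ± 336 CPM (SD, n = 3) in Hox-URE was 3310-fold that of Hox-WT, with a fitted log2 ratio of 11.65 ± 0.65 (SE, edgeR FDR = 3.66e-07). URE-AML was lower than Hox-URE by 1260-fold in mean CPM, with a log2 ratio of -10.31 ± 0.60 (SE, edgeR FDR = 2.84e-07), and this value ran from -9.72 without URE-AML library 1 to -11.35 without URE-AML library 3. URE-AML and Hox-WT differed by a log2 ratio of 1.34 ± 0.98 (SE, edgeR FDR = 0.269), which was not called.

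*Mcpt8*, a serine protease that marks mouse basophils, was present in all lines. It had 5.40, 6.96 and 13.3 CPM in Hox-WT, 43.7, 88.9 and 119 CPM in Hox-URE, and 23.9, 23.5 and 50.2 CPM in URE-AML. Both URE lines lay above Hox-WT in every library, and URE-AML library 3 overlapped with Hox-URE library 1. *Mcpt8* rose in Hox-URE by a log2 ratio of 3.29 ± 0.47 (SE, edgeR FDR = 0.000245), or 9.79-fold in mean CPM. It was also higher in URE-AML relative to Hox-WT, by a log2 ratio of 1.92 ± 0.46 (SE, edgeR FDR = 0.00449), and was the member called higher there. The difference between the URE lines was smaller, with a log2 ratio of -1.36 ± 0.44 (SE, edgeR FDR = 0.0208). That call was lost without Hox-URE library 2 (FDR = 0.0524), Hox-URE library 3 (0.0741), URE-AML library 1 (0.0776) or URE-AML library 2 (0.0783) in the same edgeR test.

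*Cpa3*, the granule carboxypeptidase of mast cells, followed another order. Hox-WT had 362, 565 and 717 CPM, Hox-URE 768, 2790 and 4440 CPM, and URE-AML 0.848, 0.904 and 2.36 CPM. The 3 lines did not overlap, although the lowest Hox-URE library stood just above the highest Hox-WT library. *Cpa3* rose in Hox-URE over Hox-WT by a log2 ratio of 2.28 ± 0.54 (SE, edgeR FDR = 0.0052), which fell to 1.69 without Hox-URE library 3 (FDR = 0.0168). It fell in URE-AML to a mean 400-fold under Hox-WT and 1940-fold under Hox-URE, with log2 ratios of -8.63 ± 0.77 (SE, edgeR FDR = 5.68e-06) and -10.92 ± 0.82 (SE, edgeR FDR = 1.95e-06). Without URE-AML library 3 these were -9.28 and -11.56. *Prss34* and *Cpa3* were thus both low in the leukemic line, but *Cpa3* was abundant in Hox-WT and *Prss34* was not.

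The tryptases and chymases that mark mature mast cells were at or close to 0. *Tpsab1* had 0 counts in the Hox-WT libraries, 26, 18 and 23 counts in the Hox-URE libraries (0.947, 0.746 and 1.18 CPM) and 1, 0 and 0 counts in the URE-AML libraries. It was at least 8.87-fold higher in Hox-URE relative to Hox-WT (edgeR FDR = 0.00019) and 65.0-fold higher relative to URE-AML, with a counting interval of 11.3-fold to 2610-fold that rests on the single URE-AML count (edgeR FDR = 0.000315). Its neighbour *Tpsb2*, the other main mast cell tryptase, had 3 counts in Hox-URE library 3, 1 in URE-AML library 3 and 0 elsewhere. The tryptases are close in sequence, and reads may have been split between them in the quantification. *Cma1*, a mast cell chymase, had 1 count in each of Hox-URE libraries 1 and 2 and in URE-AML library 3. *Mcpt4*, a chymase of connective tissue mast cells, had 0 counts in all 9 libraries, which allows up to 0.104 to 0.153 CPM, although it lies 19.9 kb from *Mcpt8*.

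The IgE receptor was represented unevenly. *Ms4a2*, its β chain, had 5.36, 3.14 and 2.35 CPM in Hox-WT, 1.82, 5.55 and 7.87 CPM in Hox-URE, and 0.0404, 0.904 and 1.03 CPM in URE-AML. The Hox lines overlapped, and every URE-AML library lay under all of them. The log2 ratio between Hox-URE and Hox-WT was 0.48 ± 0.67 (SE, 95% interval -1.01 to 1.97, edgeR FDR = 0.573). *Ms4a2* fell in URE-AML against Hox-WT by a log2 ratio of -2.47 ± 0.77 (SE, edgeR FDR = 0.0184), a call lost without Hox-WT library 1 (-2.07, FDR = 0.0627), and against Hox-URE by -2.95 ± 0.77 (SE, edgeR FDR = 0.00764). *Fcer1a*, the α chain that binds IgE, had 0 counts in all 6 Hox-WT and Hox-URE libraries and 2, 0 and 10 counts in the URE-AML libraries. The γ chain gene *Fcer1g*, which serves several Fc receptors and is no member, was at 135 CPM in Hox-WT, 340 CPM in Hox-URE and 123 CPM in URE-AML (means of 3). The chain that holds IgE was therefore not detected in the line with the highest levels of *Prss34*, *Mcpt8* and *Cpa3*.

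*Hdc*, histidine decarboxylase, makes histamine from histidine. Its level was 124, 99.1 and 89.5 CPM in Hox-WT, 191, 435 and 478 CPM in Hox-URE, and 12.1, 13.2 and 15.8 CPM in URE-AML. No library of one line overlapped with another line, and the order was the same as for *Cpa3*. *Hdc* rose in Hox-URE by a log2 ratio of 1.82 ± 0.29 (SE, edgeR FDR = 0.000504), or 3.53-fold in mean CPM. It fell in URE-AML by -2.93 ± 0.31 (SE, edgeR FDR = 2.3e-05) against Hox-WT and by -4.74 ± 0.34 (SE, edgeR FDR = 1.23e-06) against Hox-URE.

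**Figure D2:**
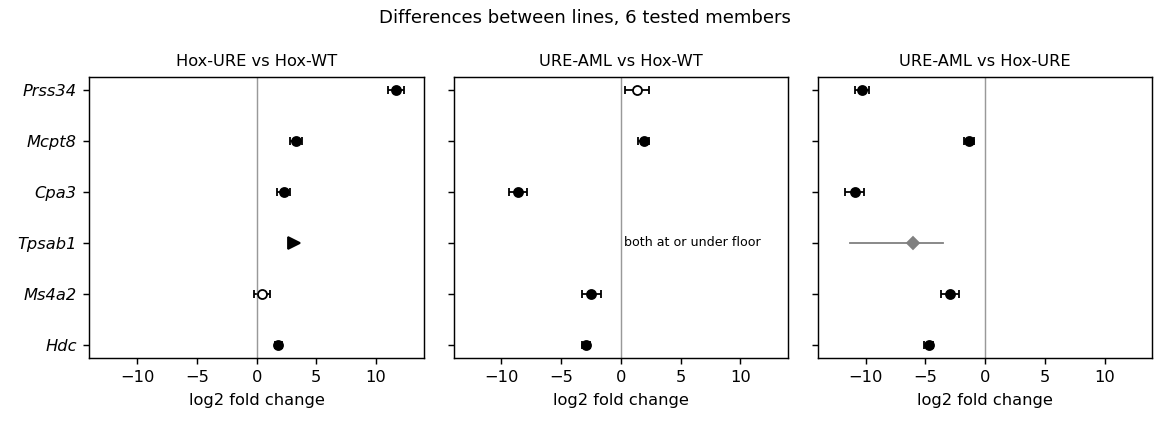
Log2 ratios of the 6 tested members in the 3 comparisons, with bars of 1 SE. Filled points were called and open points were not, the triangle is a lower bound against a line with 0 counts, and the grey diamond is a ratio with its 95% counting interval. *Prss34* and *Tpsab1* carry no call between URE-AML and Hox-WT, and all values between URE-AML and Hox-URE lie under 0.

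Between Hox-URE and Hox-WT, 5 members were called higher, 0 lower and 1 (*Ms4a2*) was not called, where the shares of tested genes called were 21.3% higher and 15.9% lower (37.2% in either direction). Between URE-AML and Hox-WT, 1 member was called higher and 3 lower, where 23.0% of genes were called higher and 20.2% lower (43.2% in either direction). Between URE-AML and Hox-URE, 0 were called higher and 6 lower, where 20.3% of genes were called higher and 22.4% lower (42.7% in either direction). In the first comparison all 6 fitted ratios were above 0 and in the last all 6 were under 0, at any p, and DESeq2 gave the same counts of calls as edgeR. Each pair of these comparisons shares the libraries of a line, so their directions are not independent. *Tpsab1* and *Prss34* passed the filter through their level in Hox-URE alone. Their directions in the comparisons with Hox-URE were thus set by the filter, and these counts are given as a description. Of the members left, *Mcpt8*, *Cpa3* and *Hdc* were called higher in Hox-URE relative to Hox-WT and *Ms4a2* was not. All of those were called lower in URE-AML relative to Hox-URE.

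Levels could be compared between members after division by transcript length, in CPM per kb of the longest transcript. In Hox-URE, *Cpa3* stood first with 1840 CPM per kb (rank 58 of 13076 tested genes with a length), followed by *Prss34* with 579 (rank 164), *Hdc* with 154 (rank 534) and *Mcpt8* (rank 850). *Prss34* and *Mcpt8* did not overlap over the 3 libraries (363 to 889 and 52.3 to 142 CPM per kb), whereas *Prss34* and *Cpa3* did (530 to 3060 for *Cpa3*), as did *Hdc* and *Mcpt8*. *Ms4a2* with 2.12 and *Tpsab1* with 0.496 CPM per kb were far lower. In Hox-WT the order was *Cpa3* (378, rank 202), *Hdc* (43.6, rank 1828), *Mcpt8* (10.2, rank 5398), *Ms4a2* (1.51) and *Prss34* (0.175). In URE-AML it was *Mcpt8* (38.9, rank 2138), *Hdc* (5.74, rank 7039), *Cpa3* (0.946), *Prss34* (0.459) and *Ms4a2* (0.275). The most abundant member per length was therefore *Cpa3* in both Hox lines and *Mcpt8* in URE-AML. All 10 members together took 0.0513% to 0.0831% of counts in the Hox-WT libraries, 0.155% to 0.574% in those of Hox-URE and 0.00384% to 0.00717% in those of URE-AML.

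The Hox-URE libraries differed among themselves more in these genes than in most others. The range of a gene was taken as its highest library over its lowest, for genes with a mean of at least 10 counts in the line and with counts under 3 raised to 3. In Hox-URE the range was 5.78-fold for *Cpa3*, 4.32-fold for *Ms4a2*, 2.72-fold for *Mcpt8*, 2.51-fold for *Hdc* and 2.45-fold for *Prss34*, and 1.58-fold for *Tpsab1*, whose 18 to 26 counts carry a wide counting error. Of the 6 members, 5 had a range over 2-fold, where 13.4% of 11982 genes did, and 2 a range over 4-fold, where 3.46% did (0 members in Hox-WT, where 1.65% of genes did, and 2 in URE-AML, where 1.96% did). The median range over all genes was 1.30-fold. A wider range than that of *Cpa3* was seen in 1.96% of genes, and than that of *Ms4a2* in 3.01%. These shares describe 3 libraries and are no test.

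Library 3 was the highest of the 3 for all 6 of these members, where it was the highest in 34% of all genes and library 1 in 40%. Library 1 was the lowest for *Cpa3*, *Ms4a2*, *Mcpt8* and *Hdc*, and library 2 for *Prss34* and *Tpsab1*, so the members did not all move together. Over all genes, library 1 was the lowest in 42.4% and in 54.8% of the 1601 genes with a range over 2-fold. The order of library 1, then 2, then 3 occurred in 25.9% of all genes and in 39.4% of those 1601. Without library 1, only 1 member (*Prss34*) kept a range over 2-fold. Mitochondrial genes took 5.56%, 5.68% and 3.51% of counts in libraries 1, 2 and 3, against 2.92% to 4.97% in the other lines, and library 3 was the shallowest of the line with 20879183 counts. The part of these in the differences was not tested.

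**Figure D3:**
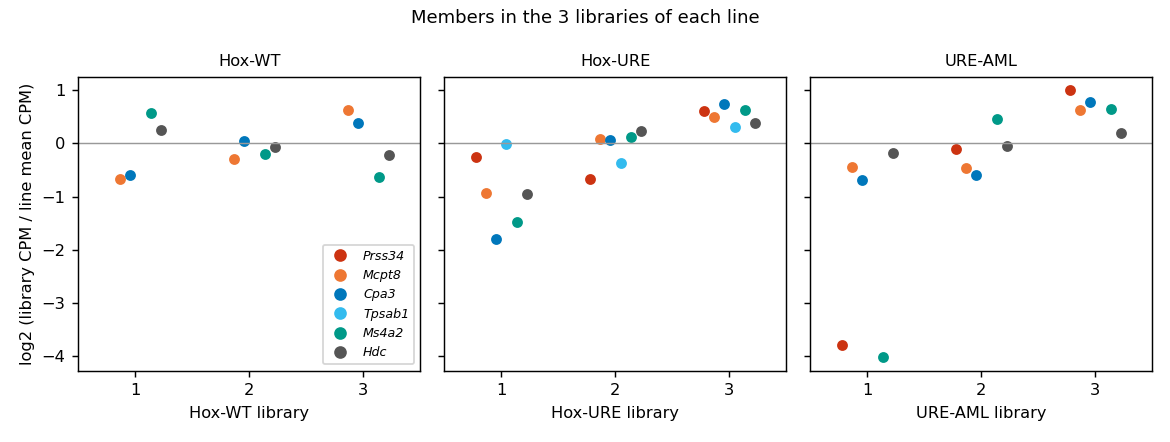
Log2 ratio of each library to the mean of its line, in CPM, for members with a mean of at least 10 counts in that line. In Hox-URE the points of *Cpa3*, *Ms4a2*, *Mcpt8* and *Hdc* are lowest in library 1 and those of all 6 members are highest in library 3. The 2 lowest points in URE-AML library 1 stand for 1 count each.

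Members also varied between the libraries of the other lines. In Hox-WT, 2 of the 4 members with enough counts had a range over 2-fold (2.47-fold for *Mcpt8* and 2.28-fold for *Ms4a2*), where 8.04% of genes did. *Mcpt8* and *Cpa3* were lowest in Hox-WT library 1 and highest in Hox-WT library 3, the order they had in Hox-URE. *Ms4a2* and *Hdc* were instead highest in Hox-WT library 1 and lowest in Hox-WT library 3. In URE-AML, 4 of 5 had a range over 2-fold, where 9.08% of genes did, and library 3 was the highest for all 5, as it was for the members in Hox-URE, where 33.5% of all genes were highest in this URE-AML library. *Prss34* and *Ms4a2* had 1 count each in URE-AML library 1, so their ranges of at least 9.21-fold and at least 8.50-fold rest on few reads. *Hdc* was the steadiest member in both, with ranges of 1.39-fold and 1.31-fold.

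The signalling genes downstream of the IgE receptor changed in both directions in Hox-URE. Of the 14 genes of this list, all tested, in Hox-URE 5 rose over Hox-WT and 6 fell, where 21.3% of all tested genes rose and 15.9% fell, with a median log2 ratio of 0.00, the same as over all genes. *Fcer1g* rose by 1.33 ± 0.17 on the log2 scale (SE, edgeR FDR = 0.000127), and the adaptor *Lat* showed the widest rise, 4.43 ± 0.29 (FDR = 1.13e-06). *Syk*, the kinase recruited by the γ chain, showed the widest fall, with a log2 ratio of -5.39 ± 0.44 (SE, edgeR FDR = 5.22e-06), from a mean of 195 CPM to 4.64 CPM. Between URE-AML and Hox-WT, 2 were called higher and 5 lower (median 0.05, against 23.0% and 20.2% of all tested genes called), led by the adaptor *Lcp2* (4.11 ± 0.16) and the kinase *Btk* (-7.08 ± 0.86, and -7.87 without URE-AML library 3) on the log2 scale. The other higher call, that of the phosphatase *Ptpn6* (0.65), was lost without any Hox-WT library or without URE-AML library 1 (edgeR FDR of 0.0699 to 0.167). Between URE-AML and Hox-URE, 2 were called higher and 7 lower (median -0.55, against 20.3% and 22.4% of all tested genes called), with *Lcp2* the highest (2.10 ± 0.15) and *Btk* the lowest (-5.31 ± 0.84). Without URE-AML library 3 the *Btk* log2 ratio was -6.10, and without Hox-URE library 3 it was -4.49, less than the value of -5.13 ± 0.21 for the adaptor *Lat2* with all libraries. *Btk* was also lower in Hox-URE relative to Hox-WT (-1.77 ± 0.61, SE, edgeR FDR = 0.0319), a call lost without Hox-URE library 2 (0.0854) or any 1 of the Hox-WT libraries (FDR of 0.0578 to 0.0678), and it was -2.60 without Hox-URE library 3.

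Genes of granule packing and mediator synthesis changed in both directions. Of 15 listed genes, 12 were tested, and in Hox-URE 6 rose over Hox-WT and 2 fell, where 21.3% of all tested genes rose and 15.9% fell. *Tph1*, one of the 6, passed the filter on low counts through Hox-URE alone, so these counts are given as a description. *Srgn*, the serglycin core protein that binds granule proteases, was abundant in all lines (823 CPM in Hox-WT, 1080 CPM in Hox-URE and 788 CPM in URE-AML) and was called in no comparison. *Slc18a2*, the vesicular transporter that loads histamine into granules, had a mean of 82.2 CPM in Hox-WT and 164 CPM in Hox-URE, and 0 counts in every URE-AML library. In URE-AML it lay under Hox-WT by at least 628-fold (edgeR FDR = 1.19e-06) and under Hox-URE by at least 1250-fold (edgeR FDR = 7.44e-07). Its rise in Hox-URE (log2 ratio 1.00 ± 0.28, SE, edgeR FDR = 0.0169) was lost without Hox-URE library 2 (0.0524) or 3 (0.0521) or Hox-WT library 1 (0.0567). The histamine enzyme and its transporter were therefore both lower in the leukemic line, *Hdc* while still detected and *Slc18a2* without a count.

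The lipid mediator enzymes did not share 1 pattern. *Alox5*, which starts leukotriene synthesis, was higher in both URE lines relative to Hox-WT, with log2 ratios of 3.58 ± 0.48 in Hox-URE (SE, edgeR FDR = 0.000148; 2.98 without Hox-URE library 3) and 3.72 ± 0.48 in URE-AML (SE, edgeR FDR = 8.66e-05). *Ltc4s*, which makes leukotriene C4, had log2 ratios of -2.04 ± 0.42 between Hox-URE and Hox-WT and 3.20 ± 0.42 between URE-AML and Hox-URE (SE, edgeR FDR = 0.00231 and 0.000105). *Hpgds*, which makes prostaglandin D2, was lower in Hox-URE by a log2 ratio of -3.01 ± 0.31 (SE, edgeR FDR = 9.8e-05) and had 0 counts in URE-AML, at least 50.1-fold under Hox-WT. *Tph1*, an enzyme of serotonin synthesis, had 0 counts in Hox-WT and was at least 8.56-fold higher in Hox-URE. *Ptgs2*, which makes the prostaglandin precursor, had means of 3.12 CPM in Hox-WT, 14.1 CPM in Hox-URE and 0.297 CPM in URE-AML, the order of *Hdc* and *Slc18a2*. It was called in every comparison, with log2 ratios of 2.19 ± 0.45 in Hox-URE (1.56 without Hox-URE library 1) and -3.39 ± 0.60 in URE-AML against Hox-WT (SE, edgeR FDR = 0.00229 and 0.000695). Over the list, 4 genes were called higher and 4 lower between URE-AML and Hox-WT, where these shares were 23.0% and 20.2% over all tested genes. Relative to Hox-URE, 3 were higher and 7 lower in URE-AML, where the shares were 20.3% and 22.4%. *Ltc4s*, one of the 4 called higher (1.16, edgeR FDR = 0.0204), lost its call without any of 5 libraries (every library of both lines but URE-AML library 3, FDR of 0.0516 to 0.103).

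The other serine proteases near the members were mostly silent. Of 12 listed genes of both clusters, 3 were tested, namely *Ctsg*, *Gzmb* and *Prss28*. *Prss28*, a tryptase-like protease, had 2.19, 4.93 and 10.6 CPM in the Hox-URE libraries and 0 counts in the other 6. It was at least 54.9-fold higher in Hox-URE relative to Hox-WT (edgeR FDR = 0.000839) and at least 45.2-fold higher relative to URE-AML (edgeR FDR = 0.000787). Without Hox-URE library 3 its fitted log2 ratio moved from 10.19 to 9.50 against Hox-WT and from -10.19 to -9.50 for URE-AML against Hox-URE. *Gzmb*, granzyme B, which lies with the chymases, had 0, 38 and 167 counts in the Hox-URE libraries and 0 counts in Hox-WT, and was at least 31.3-fold higher in Hox-URE (edgeR FDR = 0.0132). That difference rested mostly on library 3, without which the fitted log2 ratio of *Gzmb* was 7.32 in place of 9.37. *Ctsg*, cathepsin G of neutrophil granules, was at 1990 CPM in Hox-WT, 3330 CPM in Hox-URE and 3710 CPM in URE-AML, with a difference between URE-AML and Hox-WT that was called (0.90 ± 0.29, edgeR FDR = 0.0228) and lost without any of 4 libraries (Hox-WT 1 or 2, URE-AML 2 or 3, FDR of 0.0532 to 0.103). *Mcpt1*, *Mcpt9*, *Cma2* and *Prss33* had 0 counts in all libraries. Of these 3 genes, 2 rose and 0 fell from Hox-WT to Hox-URE, 1 rose and 0 fell from Hox-WT to URE-AML, and 0 rose and 1 fell from Hox-URE to URE-AML. *Prss28* passed the filter on low counts through Hox-URE alone and *Gzmb* through Hox-URE and URE-AML, so nothing is read from these counts about the list.

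Among 12 transcription factors known in mast cells and basophils, all tested, 3 rose and 3 fell from Hox-WT to Hox-URE (median 0.08), 2 rose and 6 fell from Hox-WT to URE-AML (median -0.58), and 2 rose and 6 fell from Hox-URE to URE-AML (median -0.71). Of all tested genes, 21.3% rose and 15.9% fell in the first comparison, 23.0% and 20.2% in the second, and 20.3% and 22.4% in the third. The call of *Runx1*, one of those that rose from Hox-WT to URE-AML (0.69, edgeR FDR = 0.0495), was lost without any of 6 libraries (Hox-URE 2, Hox-WT 1 or 3, any URE-AML library, FDR of 0.0676 to 0.159). *Gata2* had 110, 112 and 106 CPM in Hox-WT, 209, 198 and 244 CPM in Hox-URE and 6.50, 13.3 and 7.60 CPM in URE-AML. The 3 lines did not overlap, in the same order as *Hdc* and *Cpa3*. *Gata2* rose in Hox-URE by a log2 ratio of 0.99 ± 0.20 (SE, edgeR FDR = 0.00226) and fell in URE-AML by -3.59 ± 0.23 against Hox-WT (SE, edgeR FDR = 5.2e-07). *Gata1*, a relative of *Gata2*, was low in all lines (1.27, 0.101 and 0.983 CPM) and was lower in Hox-URE relative to Hox-WT (-3.61 ± 0.49, SE, edgeR FDR = 0.000156).

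*Tal1*, a partner of the GATA factors, had the order of *Gata2*, with a mean of 151 CPM in Hox-WT, 259 CPM in Hox-URE and 93.6 CPM in URE-AML and no overlap between lines. Relative to Hox-WT its log2 ratio was 0.77 ± 0.15 for Hox-URE and -0.69 ± 0.15 for URE-AML (SE, edgeR FDR = 0.00174 and 0.00286). *Lmo4*, known from basophil progenitors, was at 115 CPM in Hox-WT, 108 CPM in Hox-URE and 40.1 CPM in URE-AML, and fell in URE-AML against Hox-WT (-1.52 ± 0.13, SE, edgeR FDR = 5.45e-06) without a call between the Hox lines (-0.09 ± 0.13, FDR = 0.612). *Mitf*, a regulator of mast cell genes, stayed at or under 3.47 CPM in every library, and its call in Hox-URE (0.99 ± 0.38, SE, edgeR FDR = 0.0499) was lost when any of 6 libraries was left out (FDR of 0.0557 to 0.183). Against Hox-WT it was the factor with the widest called rise in URE-AML (1.61 ± 0.38, SE, edgeR FDR = 0.00439). *Ikzf2*, an Ikaros family factor, had 3 counts in URE-AML and was 352-fold under Hox-WT (counting interval 120-fold to 1710-fold) and 146-fold under Hox-URE (49.6-fold to 710-fold) in mean CPM. Without URE-AML library 3 its log2 ratio moved from -8.30 to -9.16 against Hox-WT and from -7.05 to -7.90 against Hox-URE. *Spi1* had 2 counts in Hox-URE, 3640-fold under Hox-WT with a counting interval of 1010-fold to 30100-fold.

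Several receptors of mast cells and basophils were higher in Hox-URE. Of 12 listed, 8 were tested, and in Hox-URE 7 rose over Hox-WT and 1 fell, where 21.3% of all tested genes rose and 15.9% fell. *Ccr3*, one of the 7, passed the filter on low counts through Hox-URE alone, so the counts for this list are given as a description. The one that fell was *Kit*, the receptor of SCF and a marker of mast cells (175 to 43.0 CPM, log2 ratio -2.02 ± 0.13, SE, edgeR FDR = 9.74e-07). The widest fitted rise was that of *Ccr3*, a chemokine receptor of basophils and eosinophils, on low levels (a mean of 0.0125 CPM in Hox-WT and 0.664 CPM in Hox-URE). *Il1rl1*, the IL-33 receptor, rose by 4.43 ± 0.57 (SE, edgeR FDR = 0.00012; 3.81 without Hox-URE library 3). Between URE-AML and Hox-WT, 3 were called higher and 2 lower (23.0% and 20.2% of all tested genes), and between URE-AML and Hox-URE, 1 higher and 6 lower (20.3% and 22.4%). The lower call of *Il1rl1* against Hox-WT (-1.77, edgeR FDR = 0.0365) was lost when any 1 of the libraries of these lines was left out (FDR of 0.0526 to 0.125). In the last comparison the widest falls were those of *Il1rl1* (-6.20 ± 0.65; -5.59 without Hox-URE library 3) and *Cd200r3* (-6.11 ± 1.34; -5.04 without Hox-URE library 3 and -6.84 without URE-AML library 3), and *Kit* was the receptor that rose (1.17 ± 0.13). *Itga2*, *Mrgprb1*, *Mrgprb2* and *Ptgdr2*, the last a receptor of prostaglandin D2, had 0 counts in all libraries.

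Some of these genes shared the order of *Cpa3* and *Ms4a2* over the Hox-URE libraries, and they were picked out after their values had been seen. *Cd200r3*, a receptor of basophils, had 0.437, 26.6 and 58.7 CPM in Hox-URE libraries 1, 2 and 3. *Csf2rb2*, a β subunit of the IL-3 receptor close in sequence to *Csf2rb*, had 64.8, 372 and 675 CPM, while *Csf2rb* itself stayed at 1870, 1970 and 2020 CPM. *Il1rl1* had 31.8, 110 and 184 CPM and *Btk* 4.99, 27.7 and 54.4 CPM. In library 1, *Cd200r3* lay under its Hox-WT level of 1.18 to 1.39 CPM, so the rise of 4.45 ± 1.15 on the log2 scale (SE, edgeR FDR = 0.0082; 3.37 without Hox-URE library 3) did not hold for every library. Reads of *Csf2rb* and *Csf2rb2* may have been split in the quantification. *Kit* had 50.7, 42.9 and 35.5 CPM in the same libraries, an order opposite to that of *Cpa3*.

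**Figure D4:**
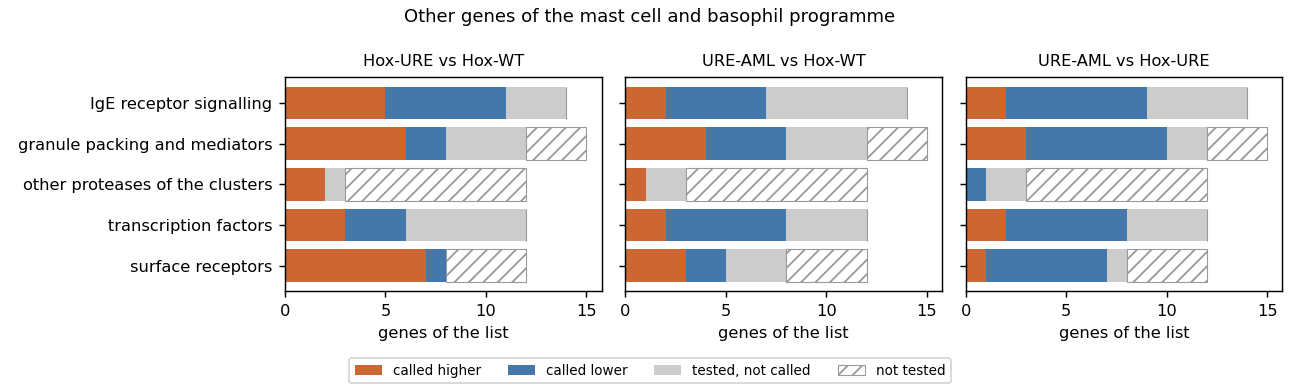
Number of genes of 5 lists that were called higher, called lower, tested without a call, or not tested in each comparison of lines. Of the surface receptors, 7 were called higher and 1 lower between Hox-URE and Hox-WT, and for IgE receptor signalling the counts were 5 higher and 6 lower.

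Defining markers of basophils and mast cells were detected only in part in these lines. Of 8 basophil markers, which include 4 members, *Fcer1a* and *Itga2* had 0 counts in both Hox lines. Of 9 mast cell markers, which include 6 members, *Mcpt4* and *Mrgprb2* had 0 counts in all lines, and *Cma1*, *Tpsab1* and *Tpsb2* had 0 counts in Hox-WT. Of the 9, 4 had more than 3 counts in each Hox-WT and URE-AML library, and 5 in each Hox-URE library. The summed level of the basophil list was 233 to 241 CPM in Hox-WT, 871 to 1600 CPM in Hox-URE and 67.0 to 103 CPM in URE-AML. Almost all of it in Hox-WT was the transcription factors *Lmo4* (111 to 119 CPM) and *Gata2* (106 to 112 CPM), while in Hox-URE *Prss34* gave 442 to 1080 CPM. For the mast cell list it was 657 to 969, 1010 to 4950 and 113 to 116 CPM. *Cpa3* made up most of that sum in the Hox lines, with 362 to 717 CPM in Hox-WT and 768 to 4440 CPM in Hox-URE, and *Kit* most of it in URE-AML, with 92.8 to 99.7 CPM. Both sums were highest in Hox-URE library 3, and the mast cell sum was lowest of the line in library 1 with 1010 CPM.

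Markers of other cell types also differed between the lines. The 9 neutrophil markers summed to 5610 to 9040 CPM in Hox-WT, 2620 to 4000 CPM in Hox-URE, where *Ltf* and *S100a9* had 0 counts, and 11300 to 26000 CPM in URE-AML. In Hox-URE almost all of the sum was *Ctsg*, with 2480, 3630 and 3860 CPM, which was not called between the Hox lines. Of the 9, 8 were called lower in Hox-URE relative to Hox-WT, where 15.9% of all tested genes were so called. In URE-AML relative to Hox-WT, 8 were called higher, where 23.0% of all tested genes were. *Camp* and *Ltf* passed the filter on low counts through URE-AML alone, so these counts are given as a description. The lower call of *Camp* was lost without Hox-URE library 1 or 2 or Hox-WT library 3 (edgeR FDR of 0.0589 to 0.0708), and the higher call of *Ltf* without Hox-WT library 2 (0.0627) or URE-AML library 3 (0.0694). That of *Ctsg* was lost without Hox-WT library 1 or 2 or URE-AML library 2 or 3 (edgeR FDR of 0.0532 to 0.103). *Mpo* was the marker called lower in URE-AML relative to Hox-WT (log2 ratio -4.71 ± 0.49, SE, edgeR FDR = 1.95e-05), with means of 192 CPM and 5040 CPM. The 6 eosinophil markers summed to 20.7 to 26, 0.874 to 2.20 and 11.9 to 49.7 CPM in the same order, with *Epx*, *Il5ra* and *Prg3* at 0 counts in Hox-URE. The 6 monocyte markers summed to 840 to 939 CPM in Hox-URE, almost all of it *Ccr2*, with *Csf1r*, *Klf4* and *Ms4a6c* at 0 counts. The 5 megakaryocyte markers summed to 16.0, 33.6 and 46.4 CPM in Hox-URE libraries 1, 2 and 3, the order also seen for *Cpa3*. In the other lines they summed to at most 7.0 CPM. Most of the Hox-URE sum was *Itga2b*, with 15.1, 29.8 and 40.3 CPM. Relative to Hox-WT, *Itga2b* (log2 ratio 3.57, edgeR FDR = 9.13e-05) and *Gp9* (2.12, 0.0158) were called higher and *Pf4* lower (-2.69, 0.00759). The *Gp9* call was lost without Hox-URE library 3 or Hox-WT library 1 or 2 (edgeR FDR of 0.054 to 0.0772). *Gp1bb* had 0 counts in both Hox lines, and *Ppbp* had 41 counts in Hox-WT and 1 in Hox-URE. Erythroid and lymphoid lists stayed at or under 17.1 CPM in every library. The part of these in the differences of the members was not tested.

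**Figure D5:**
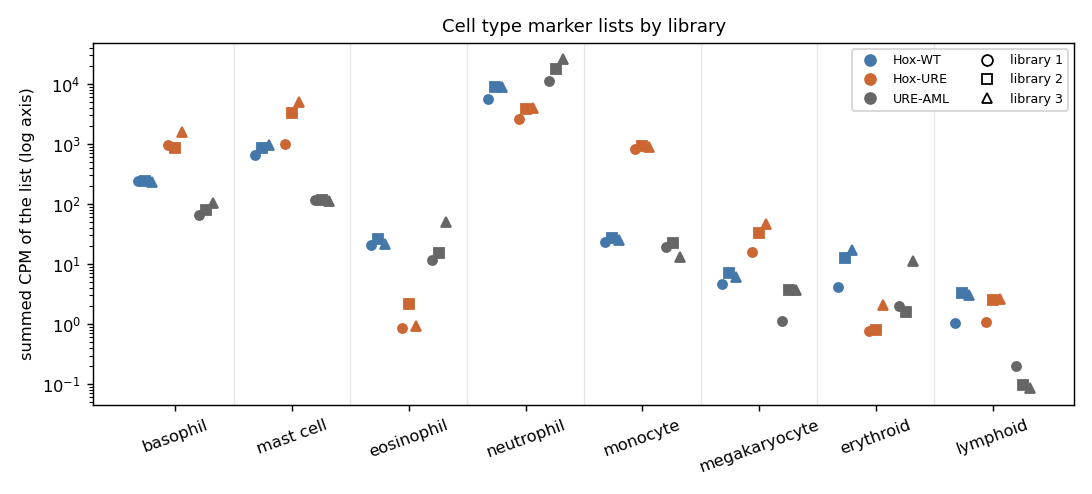
Summed CPM of 8 marker lists in each library, on a log axis, with colours for lines and symbols for library numbers. The mast cell sum runs from 1010 to 4950 CPM over the Hox-URE libraries, the neutrophil sum is lowest in Hox-URE and highest in URE-AML.

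For each tested member, the 3 genes with the most similar profile were those with the smallest root mean square difference in centred log2 CPM over the 9 libraries. Those of *Prss34* were *Tpd52l1* (0.87), *Laptm4b* (0.93) and *Syt9* (0.94), each at 133 to 277 CPM in Hox-URE and at or under 0.131 CPM in the other lines. *Mcpt8* was followed most closely by *Anxa5* (0.40), *Il3ra* (0.41) and *Itgal* (0.41), and *Il3ra* is the α chain of the IL-3 receptor. *Hdc* was followed by *5730409E04Rik* (0.29) and *Blnk* (0.29), both at or under 2.44 CPM in Hox-URE and at 0 CPM in URE-AML, and by the glutamine synthetase gene *Glul* (0.33), whose means were 101 CPM in Hox-WT, 421 CPM in Hox-URE and 10.6 CPM in URE-AML. *Cpa3* was followed less closely by *Neurl3* (0.63), *Gm2a* (0.70) and *Slc22a3* (0.73), and *Ms4a2* by *Slc28a2* (0.58), *F8* (0.70) and *Fbxo44* (0.71). For *Tpsab1*, *Gm34099*, *Tspan6* and *Hist1h4m* lay within 0.24 to 0.26, on levels under 1 CPM. No member was among the 3 nearest genes of another member.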

How the data were processed

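Poly-A RNA of the 3 lines was sequenced from stranded libraries. Salmon was used by the authors for quantification and tximport for the step from transcripts to genes. The values they deposited are estimated counts for each gene, given as whole numbers with totals that differ between libraries. The submitters' processing notes name GRCm38, while the transcriptome release and any correction for transcript length are not given in the sources used here, so a change in transcript use could alter a count. Groups came from the labels. Members and gene lists were chosen with earlier results of these data known.

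A single edgeR model (version 4.0.16, R 4.3.3) took the counts of all 9 libraries, with line as the only factor, after filterByExpr (minimum count 10) and TMM scaling. Lines were compared pairwise by its two-sided quasi-likelihood F test, and the SE was the size of the log2 ratio over the square root of F. Folds against lines at 0 used a floor of 3 counts per library. Profiles were compared on log2 CPM with a prior count of 2. The fit was tested on simulated data. Alternatives were other scalings, filters and thresholds, the 6 libraries of a comparison alone, a replicate block, DESeq2 1.42.0 and leaving out each library. Named genes were all members, basophil progenitor genes of the study text (*Lmo4*, *Gata2*), *Spi1*, *Kit*, *Gata1*, *Mitf*, *Fcer1g*, *Srgn*, *Slc18a2*, the extreme called genes of each list, and the 3 most similar genes per member; other listed genes and markers were named after their values had been seen. Coordinates and transcript lengths came from GENCODE M21, in which 54094 of 54347 identifiers were found, and upstream sequences from RefSeq. Figures were drawn with matplotlib 3.10.9.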

Additional observations from a re-analysis of the deposited data

How the results depend on the processing

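The calls of the members kept their direction under every alternative that gave a value, and none reversed. The calls lost were those of *Mcpt8* between URE-AML and Hox-URE without any of 4 libraries and of *Ms4a2* between URE-AML and Hox-WT without Hox-WT library 1, as given above. In the fit of only the 6 libraries of URE-AML and Hox-WT, *Prss34* and *Tpsab1* did not pass the filter and gave no value. Depth limits *Tpsb2*, *Cma1* and *Mcpt4*, for which differences were not detectable at these counts. With at least 10 counts in every library, only *Mcpt8*, *Cpa3* and *Hdc* could be tested, so the members called were 3 higher in Hox-URE relative to Hox-WT and 3 lower in URE-AML relative to Hox-URE, and 2 members in URE-AML had a range over 2-fold. With no filter on low counts, *Fcer1a* was also called, with a log2 ratio of 5.14 in URE-AML against Hox-WT (edgeR FDR = 0.0365) and against Hox-URE (edgeR FDR = 0.0463), on 12 counts in all, which made 2 and 1 members higher. Above 4-fold instead of 2-fold, ranges were seen in 0 members for Hox-WT, 2 for Hox-URE and 2 for URE-AML. Leaving out each library in turn gave 5 members higher in Hox-URE relative to Hox-WT each time, 2 to 3 lower in URE-AML relative to Hox-WT and 5 to 6 lower in URE-AML relative to Hox-URE. The number with a range over 2-fold was then 0 to 2 for Hox-WT, 1 to 4 for Hox-URE and 2 to 4 of the URE-AML members, with fewer libraries to span a range.

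Over all genes, the filter of 10 counts in every library, which tests fewer genes, gave 1841 genes higher and 1359 lower from Hox-WT to Hox-URE, 1891 and 1711 from Hox-WT to URE-AML, and 1668 and 1885 from Hox-URE to URE-AML. Without a fold threshold, 3294 genes were lower in Hox-URE relative to Hox-WT. Scaling by library size alone moved the median of all genes between URE-AML and Hox-URE to 0.11 on the log2 scale, and changed no call of a member.

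Deviations of same-numbered libraries from their line means correlated at 0.271, 0.099 and 0.174 between Hox-URE and Hox-WT for numbers 1, 2 and 3. Between the other lines the values were 0.010 to 0.092. A value of 0.1 was needed in every pair, and only numbers 1 and 3 of Hox-URE with Hox-WT exceeded it. The numbers were therefore not taken to pair libraries. As a hint from the data, 6 of 6 libraries correlated best with their own number for Hox-URE with Hox-WT, 5 of 6 for URE-AML with Hox-WT and 6 of 6 for URE-AML with Hox-URE. With the replicate block the members called were 5 higher and 0 lower, 1 and 3, and 0 and 6 in the same order of comparisons, and the genes called were 2802 and 2106, 3029 and 2650, and 2680 and 2904.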
